A study of Homo sapiens with 2 samples.

Results

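The BCL2 family genes considered here were the 10 genes BCL2L1, MCL1, BCL2L2, BAK1, BOK, BID, BAD, BCL2L11, BIK and BMF, out of 23303 genes named in the deposited transcript assemblies. Their members were the models whose RefSeq accession maps to one of these symbols, together with assembled models that share an exact intron with them on the same strand. That gave 48 models of 67822 in the library labelled USP49 knockdown, of which 20 were listed above 0, and 50 of 66412 in the control library, of which 21 were listed above 0. The genes were chosen by name and not by their values.

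Poly(A) RNA was sequenced from HCT116, an established cell line from a human colorectal carcinoma, in which a T-REx construct lets tetracycline or doxycycline switch on a knockdown of USP49. The cells were grown with blasticidin and puromycin. USP49 is a deubiquitinating enzyme that removes ubiquitin from histone H2B. The treated sample was 1 library labelled USP49 knockdown, for which the labels' protocols give a harvest at 36 h of induction with doxycycline, and beside it stood 1 library labelled control from the same inducible cells. The labels give the same induction text for both libraries, and whether the RNA control cells received doxycycline is not given in the sources used here. The design compared gene expression between these libraries.

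BCL2 family proteins govern the permeability of the outer mitochondrial membrane. Anti-apoptotic members such as Bcl-xL and MCL1 hold the effectors BAK and BAX in check, BH3-only proteins such as BIM and BID relieve that hold or engage the effectors directly, and an open membrane releases cytochrome c, which activates caspases. Several family genes make proteins of opposite or different potency by alternative splicing: the short form of BCL2L1, Bcl-xS, and the short form of MCL1 promote cell death, whereas the long forms protect cells.

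The sequences at the junctions that separate these forms are shown for reference. The statements on forms below rest on the intron positions of the deposited models, and no fragment or model was matched to a sequence. They are GENCODE release 29 transcripts of GRCh38, on the coding strand, with 25 bases on each side of the junction and the downstream exon in capitals. The internal exons of these transcripts had the same lengths as in the deposited hg18 models. The short form of MCL1 has 2 exons and so no internal exon to compare.
BCL2L1 long form (NM_138578, chromosome 20, minus strand): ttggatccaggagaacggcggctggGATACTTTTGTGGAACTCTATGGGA
BCL2L1 short form (NM_001191, chromosome 20, minus strand): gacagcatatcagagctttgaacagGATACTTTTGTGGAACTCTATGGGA
MCL1 long form (NM_021960, chromosome 1, minus strand): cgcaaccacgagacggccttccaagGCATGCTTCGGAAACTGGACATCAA
MCL1 short form, middle exon skipped (NM_182763, chromosome 1, minus strand): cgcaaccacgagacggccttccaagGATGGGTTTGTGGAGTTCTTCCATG
MCL1 with an intron inside the first exon removed (NM_001197320, chromosome 1, minus strand): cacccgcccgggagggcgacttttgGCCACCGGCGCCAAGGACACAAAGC
BCL2L11 form BimL (NM_006538, chromosome 2, plus strand): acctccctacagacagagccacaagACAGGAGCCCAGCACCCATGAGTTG

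Both BCL2L1 junctions enter the same last exon and differ only in the donor. The short form uses a donor 189 bases upstream, so that 63 codons of the 233 in the long form are absent and 170 remain. Those 189 bases, at chr20:29773119-29773307 of hg18 on the minus strand, begin with the gt of the short form's donor: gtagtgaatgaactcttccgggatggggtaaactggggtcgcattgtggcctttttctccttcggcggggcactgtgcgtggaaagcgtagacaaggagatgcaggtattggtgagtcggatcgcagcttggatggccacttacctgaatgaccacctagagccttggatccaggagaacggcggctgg. The MCL1 coding sequence has 350 codons in the long form, 271 with the middle exon of 248 bases skipped and 197 with the 459 bases inside the first exon removed. In BCL2L11, BimEL (NM_138621) has 198 codons and BimL 138. The difference is a stretch of 180 bases, chr2:111597918-111598097 of hg18 on the plus strand, which begins with gt and ends with ag: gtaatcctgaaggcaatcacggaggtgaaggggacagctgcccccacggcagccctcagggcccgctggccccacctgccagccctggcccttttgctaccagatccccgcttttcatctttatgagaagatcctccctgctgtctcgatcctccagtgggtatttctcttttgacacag.

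The recovered fragments totalled 19959667 in the library labelled USP49 knockdown and 16378302 in the control library. USP49 itself, the check of the label, had a density of 1.09 FPKM (95% Poisson interval 0.847 to 1.38) in the library labelled USP49 knockdown and 0.894 FPKM (0.656 to 1.19) in the control library, and the intervals overlapped. Its FPKM summed over named models was 1.10 in the library labelled USP49 knockdown and 2.88 in the control library, so the direction of the targeted gene turned with the measure and the label was not settled by it. Of 10 epithelial and colonic markers 6 were measured, 1 with a ratio above 0 and 5 below. Among them KRT19 (286 and 319 FPKM, labelled knockdown first) and EPCAM (144 and 151 FPKM) were abundant, while CDX1 and VIL1 were listed at 0 in both libraries, and of 10 markers of other cells 1, COL1A1, reached a mean of 1 FPKM.

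A gene's level is given as the density of fragments on its RefSeq exons, in fragments per kilobase scaled to the library total (FPKM), from models of either strand. Fragment numbers were recovered from the deposited values. Each model's fragments were spread evenly over its length, so a level still rests on the models of its library, and intervals cover counting error only. As each group is 1 library, the spread between cultures is unknown and no test was made. The ratio is log2 of the level plus 1 FPKM in the library labelled USP49 knockdown over the level plus 1 FPKM in the control library.

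The 10 genes spanned levels from under 1 to over 100 FPKM and held the same broad order in both libraries. BCL2L1 and MCL1 stood highest, BIK, BID, BAD and BCL2L2 lay close together, BOK, BCL2L11 and BAK1 were lower, and BMF was lowest. The intervals of BIK, BID, BAD and BCL2L2 overlapped, except that those of BIK and BCL2L2 in the control library did not. A density divides by all RefSeq exons of a gene, also those that its models above 0 do not use. Summed over named models, BID, BAD, BIK and BCL2L2 had 31.4, 29.9, 28.0 and 21.2 FPKM in the library labelled USP49 knockdown. In the control library these sums were 32.2, 31.8, 28.0 and 22.4 FPKM. Of the 9 genes that averaged at least 1 FPKM, 4 had a ratio above 0 and 5 a ratio below 0. Their median log2 ratio was -0.05, with a range of -0.10 to 0.09, beside a median of -0.00 over the 12049 genes measured, of which the middle 95% lay between -0.31 and 0.24. None of the 9 was past 2-fold in either direction, where 0.78% of all genes measured were (94 of 12049, 36 higher and 58 lower). The counting interval of the ratio left out 1 for 2 of the 9, MCL1 (higher) and BCL2L1 (lower), against 27.2% of all genes measured, so the members did so about as often as genes in general.

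**Figure D1:**
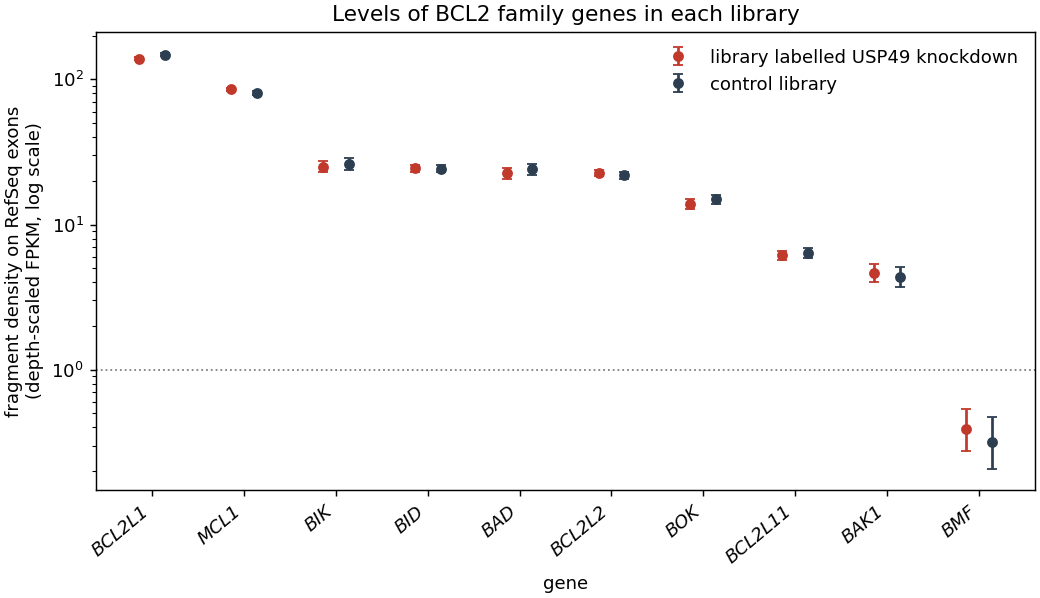
Density of fragments on RefSeq exons (depth-scaled FPKM, log axis) for each of the 10 genes, with the library labelled USP49 knockdown in red on the left of each pair and the control library in dark blue on the right; bars are 95% Poisson intervals, which cover counting error only. The highest gene, BCL2L1, stood at 138 and 148 FPKM and the lowest, BMF, at 0.388 and 0.320 FPKM, labelled knockdown first, and the dotted line marks 1 FPKM.

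**Figure D2:**
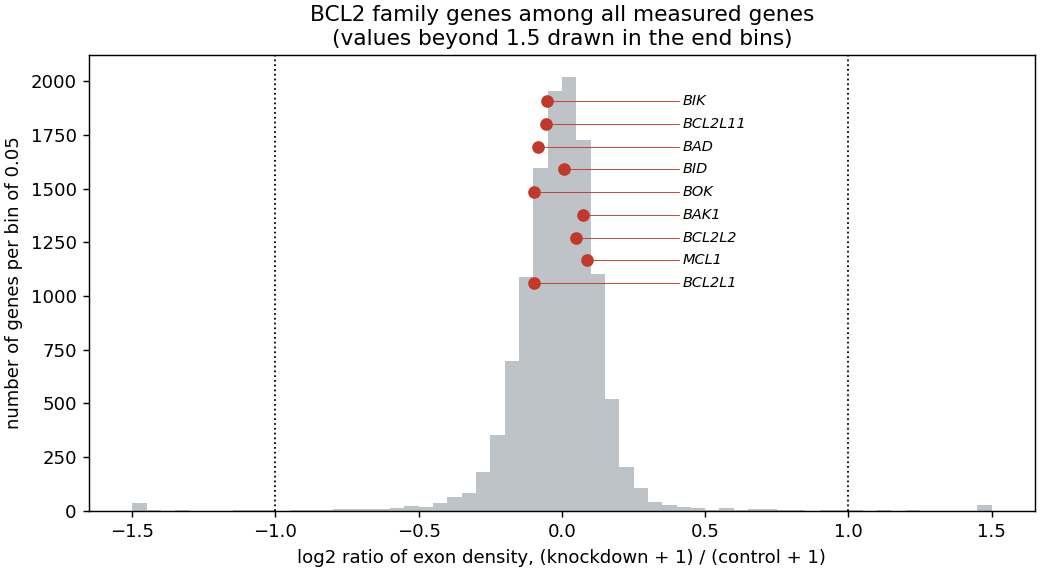
Histogram of the log2 ratio over the 12049 genes measured (grey, bins of 0.05), with the 9 measured BCL2 family genes as red points whose height has no meaning. All 9 lay between -0.10 and 0.09, inside the bulk of the histogram and far from the 2-fold lines (dotted).

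Among the anti-apoptotic genes, BCL2L1 encodes Bcl-xL and lies on chromosome 20, minus strand, from 29715922 to 29774317 of hg18. Its density was 138 FPKM (95% Poisson interval 135 to 142) in the library labelled USP49 knockdown, on 7065 fragments, and 148 FPKM (145 to 152) in the control library, on 6208 fragments. The level was slightly lower in the library labelled USP49 knockdown: the depth-scaled ratio was 0.934, with a counting interval of 0.902 to 0.966. Of all genes measured, 97.6% lay below BCL2L1 in the library labelled USP49 knockdown and 97.9% in the control library.

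The form of BCL2L1 was the long one. The intron of the long form, from 29717551 to 29773118, lay on models carrying all 7769 fragments in the library labelled USP49 knockdown and all 6778 in the control library. The short-form model NM_001191, whose intron ends at 29773307, was listed at 0 in both libraries, a short-form share of 0% in each. No model above 0 in loci with several models had under 10.0% of its locus's value in either library, so a form listed at 0 may still hold a share up to about 10.0%, and a small amount of Bcl-xS was not detectable in these files.

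The fragments of BCL2L1 were divided over 3 models in each library, all with the long-form donor. NM_138578 carried 3046 fragments (60.8 FPKM) in the library labelled USP49 knockdown and 3210 fragments (78.0 FPKM) in the control library. An assembled model of 2 exons carried 2252 fragments (45.8 FPKM, 2512 bases) in the library labelled USP49 knockdown and 1638 fragments (41.0 FPKM, 2485 bases) in the control library. An assembled model of 3 exons with a 5′ end beyond the RefSeq start carried 2471 fragments (38.7 FPKM) in the library labelled USP49 knockdown and 1930 fragments (37.1 FPKM) in the control library. These models differ upstream of the coding donor. The RefSeq 5′ intron, from 29773813 to 29774081, was on 61.1% of the FPKM that spanned it in the library labelled USP49 knockdown and 67.8% in the control library, a difference of -6.7 percentage points, where 20 points were taken as the threshold.

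MCL1 encodes a short-lived anti-apoptotic protein and lies on chromosome 1, minus strand, from 148813651 to 148818838. Its density was 85.4 FPKM (83.4 to 87.5) in the library labelled USP49 knockdown, on 6965 fragments, and 80.4 FPKM (78.3 to 82.6) in the control library, on 5378 fragments. The level was slightly higher in the library labelled USP49 knockdown, with a depth-scaled ratio of 1.06 (counting interval 1.025 to 1.101) and a log2 ratio of 0.09. That small size depended on 1 model. The control library holds an unspliced model with no strand, 5076 bases long, that carried 789 fragments. It runs through both introns of the long form and over 3947 of the gene's 4085 exonic bases, all but those at the 5′ end, and no such model was listed in the library labelled USP49 knockdown. Counting models of the gene's own strand alone, the density was 85.4 FPKM in the library labelled USP49 knockdown and 71.2 FPKM in the control library, a log2 ratio of 0.26. Whether those 789 fragments are MCL1 RNA with its introns, or something else, was not tested.

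All MCL1 fragments on spliced models were on models that include the middle exon, 6965 in the library labelled USP49 knockdown and 4765 in the control library. The model that skips it, NM_182763, was listed at 0 in both, a short-form share of 0% with the same limit of about 10.0%. The spliced fragments were divided between the long form and NM_001197320, which lacks the 459 bases from 148818064 to 148818522 inside the first exon. NM_021960 carried 5714 fragments (70.9 FPKM) in the library labelled USP49 knockdown and 3560 fragments (53.8 FPKM) in the control library. NM_001197320 carried 1251 fragments (17.5 FPKM) in the library labelled USP49 knockdown and 1205 fragments (20.6 FPKM) in the control library. Its share of the spliced FPKM was 19.8% in the library labelled USP49 knockdown and 27.6% in the control library, a difference of -7.8 points, short of 20. By fragments the shares were 18.0% (95% Wilson score interval 17.1 to 18.9) and 25.3% (24.1 to 26.5), labelled knockdown first. Fragments on exons that the forms share were divided between them by the assembly, which these intervals do not cover.

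**Figure D3:**
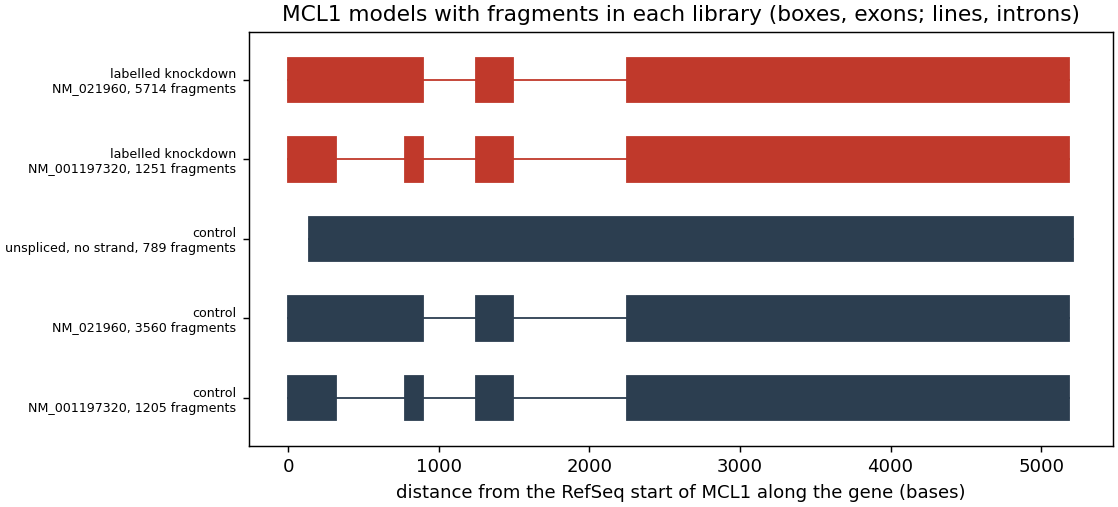
Models over MCL1 with fragments in each library, as distance in bases from the RefSeq start of the gene; boxes are exons and lines introns, in red for the library labelled USP49 knockdown (upper rows) and dark blue for the control library (lower rows). The forms with the middle exon appear in both libraries, and the unspliced model with 789 fragments appears in the control library only.

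BCL2L2 encodes Bcl-w, the remaining anti-apoptotic gene here, and lies on chromosome 14, plus strand, from 22845811 to 22850808. Its density was 22.6 FPKM (21.5 to 23.7) in the library labelled USP49 knockdown and 21.8 FPKM (20.65 to 23.04) in the control library, on 1651 and 1307 fragments, and the ratio of 1.04 had a counting interval of 0.963 to 1.11. The intervals overlapped. NM_004050, with 193 codons, was the only BCL2L2 model above 0, at 21.2 FPKM in the library labelled USP49 knockdown and 22.4 FPKM in the control library. A read-through model that joins BCL2L2 to its neighbour PABPN1, a poly(A)-binding protein gene, was listed in the library labelled USP49 knockdown at 11.2 FPKM (466.6 fragments over 9 exons) and at 0 in the control library. It belongs to another symbol, BCL2L2-PABPN1, and 661 of its 2130 bases lie on BCL2L2 exons, so its fragments enter the density but not the sum over BCL2L2 models, which had a log2 ratio of -0.08.

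Among the 10 genes, the effector gene BAK1 and the effector-like BOK were at lower levels than the anti-apoptotic genes. BAX, an effector gene outside the 10, stood at 49.1 and 62.4 FPKM, labelled knockdown first. BAK1, whose product forms pores in the outer mitochondrial membrane, lies on chromosome 6, minus strand, from 33648301 to 33656048. It had 4.63 FPKM (4.01 to 5.31) in the library labelled USP49 knockdown and 4.35 FPKM (3.70 to 5.09) in the control library, on 202.5 and 156.2 fragments, with a ratio of 1.06 (0.859 to 1.32). The levels did not differ beyond counting error. The models that carried it differed, however. NM_001188 held 41.7 fragments (0.974 FPKM) in the library labelled USP49 knockdown and 101 fragments (2.88 FPKM) in the control library. The rest lay on assembled models whose ends and exon numbers were not the same in the libraries. The spliced ones held 70.2 and 39.8 fragments in the library labelled USP49 knockdown and 26.0 fragments in the control library. An unspliced model held 95.1 fragments in the library labelled USP49 knockdown, and unspliced models held 40.9 and 16.6 fragments in the control library.

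The BAK1 ratio turned with the measure. Summed over named models, BAK1 had 5.86 FPKM in the library labelled USP49 knockdown and 3.55 FPKM in the control library, a log2 ratio of 0.59. With RefSeq models alone the log2 ratio was -0.97, the nearest to 2-fold of any of the 10 genes under the measures run. Its first intron was on 69.2% of the spanning FPKM in the library labelled USP49 knockdown and on 100% in the control library, a difference of -30.8 points, and its last intron on 100% in the library labelled USP49 knockdown and on 81.1% in the control library.

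BOK, an effector-like relative of BAK, lies on chromosome 2, plus strand, from 242146819 to 242162226. Its density was 13.8 FPKM (12.8 to 14.9) in the library labelled USP49 knockdown and 14.9 FPKM (13.8 to 16.1) in the control library, on 731 and 646 fragments, with a ratio of 0.929 (0.835 to 1.03). The intervals overlapped. The direction turned with the measure. Its sum over named models was 11.2 FPKM in the library labelled USP49 knockdown and 16.9 FPKM in the control library, a log2 ratio of -0.55. With RefSeq models alone the density was 10.98 FPKM in the library labelled USP49 knockdown and 8.03 FPKM in the control library, a log2 ratio of 0.41. In the library labelled USP49 knockdown, 97.5 fragments lay on a spliced model with no intron in common with NM_032515 and 85.6 on an unspliced model with no strand, and the sum leaves both out. In the control library 325 fragments lay on an assembled model with a later start that is counted for BOK.

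**Figure D4:**
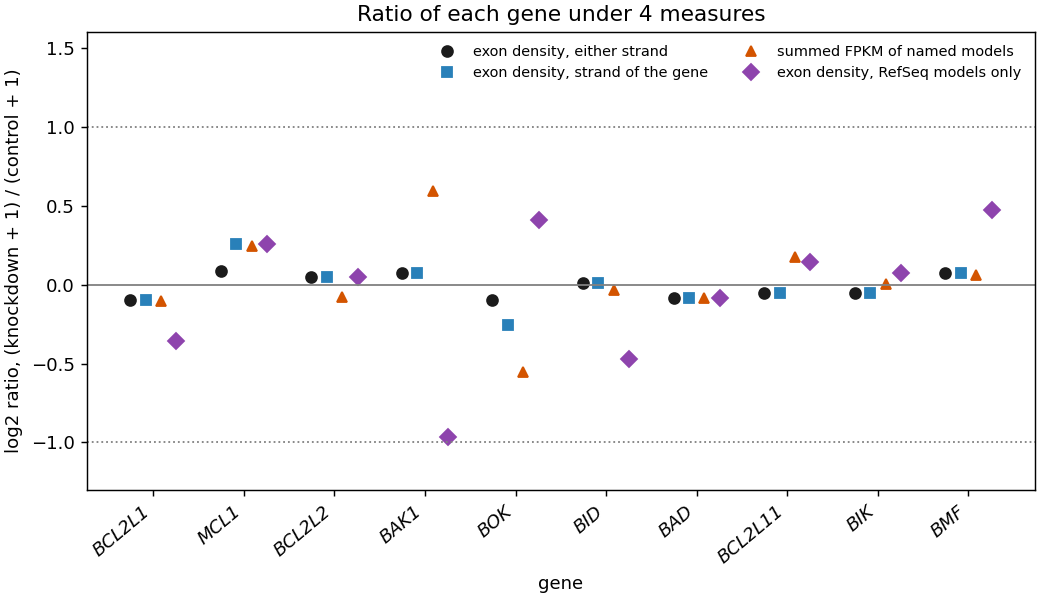
Log2 ratio of each of the 10 genes, library labelled USP49 knockdown over control, under 4 ways of counting: density from models of either strand (black circles), density from the gene's own strand (blue squares), summed FPKM of named models (orange triangles) and density from RefSeq models alone (purple diamonds); dotted lines mark 2-fold. The measures lie close together for BAD and BCL2L2 and spread widest for BAK1, between -0.97 and 0.59.

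The BH3-only genes are the initiators of the pathway. BID, whose protein is cut by caspase-8 to an active fragment, lies on chromosome 22, minus strand, from 16596906 to 16637431. It had 24.5 FPKM (23.1 to 25.8) in the library labelled USP49 knockdown and 24.3 FPKM (22.9 to 25.8) in the control library, on 1298 and 1059 fragments. With a ratio of 1.01 (0.927 to 1.09) it was the gene whose levels lay closest together. With RefSeq models alone the log2 ratio was -0.47. The full form, NM_001196, held 214.5 fragments (4.99 FPKM) in the library labelled USP49 knockdown and 448 fragments (12.7 FPKM) in the control library. Assembled models with 6 exons and the same inclusion of the internal exons held 924 fragments (22.1 FPKM) in the library labelled USP49 knockdown and 431 fragments (13.1 FPKM) in the control library. A form that skips 2 internal exons and has 99 codons in place of 195 held 4.38 FPKM in the library labelled USP49 knockdown and 6.44 FPKM in the control library. Its share was 13.9% in the library labelled USP49 knockdown and 20% in the control library, a difference of -6.1 points. The form was carried by NM_001244570 in the library labelled USP49 knockdown and by an assembled model with the same skipping intron, from 16602255 to 16637146, in the control library.

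BAD, which is held inactive by phosphorylation under growth factor signalling, lies on chromosome 11, minus strand, from 63793876 to 63808752. Its density was 22.6 FPKM (20.7 to 24.5) in the library labelled USP49 knockdown and 24.0 FPKM (21.9 to 26.2) in the control library, a ratio of 0.942 (0.832 to 1.07). Of its RefSeq models NM_032989 held every fragment, 551 in the library labelled USP49 knockdown and 480 in the control library, and NM_004322 was listed at 0 in both. Both models have a coding sequence of 168 codons.

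BIK, a BH3-only protein of the endoplasmic reticulum, lies on chromosome 22, plus strand, from 41836698 to 41855662. It had 25.1 FPKM (22.9 to 27.4) in the library labelled USP49 knockdown and 26.1 FPKM (23.6 to 28.7) in the control library, a ratio of 0.962 (0.841 to 1.10). NM_001197 held 388 fragments in the library labelled USP49 knockdown and 302 in the control library, beside 1 assembled model in each, with 93.0 and 107 fragments. The assembled models start at different places.

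BCL2L11 encodes BIM, a BH3-only protein that binds every anti-apoptotic family member, and lies on chromosome 2, plus strand, from 111594962 to 111642493. Its density was 6.12 FPKM (5.70 to 6.58) in the library labelled USP49 knockdown and 6.40 FPKM (5.92 to 6.91) in the control library, on 759 and 651 fragments, with a ratio of 0.957 (0.861 to 1.06). By this measure the level did not differ beyond counting error, but the direction turned with the measure. The density counts an unspliced model of 116 fragments at the 3′ end, listed in the control library and not in the library labelled USP49 knockdown, which shares no intron with the gene and stays out of the sum. Summed over named models, BCL2L11 had 7.70 FPKM in the library labelled USP49 knockdown and 6.70 FPKM in the control library, a log2 ratio of 0.18, on 766 and 540 fragments. With RefSeq models alone the log2 ratio was 0.14. RefSeq lists 18 models of the gene in these files, and their exons together span 6212 bases, more than any single model, so that the density understates the level.

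The forms of BCL2L11 listed above 0 were not the same in the libraries. BimEL, NM_138621, held 370.5 fragments (3.67 FPKM) in the library labelled USP49 knockdown and 177 fragments (2.14 FPKM) in the control library. NM_138622, which has an extra exon before the last one and 169 codons, held 238 fragments in the library labelled USP49 knockdown and was listed at 0 in the control library. BimL, NM_006538, was listed at 0 in the library labelled USP49 knockdown and held 174 fragments (2.19 FPKM) in the control library. NM_138627, which joins the early donor of BimL to the last exon, was listed at 0 in the library labelled USP49 knockdown and held 92.3 fragments (1.204 FPKM) in the control library. Assembled spliced models held 157 fragments in the library labelled USP49 knockdown, on a model whose first exon ends at the donor of the extra exon, and 96.99 fragments in the control library, on a model 3 bases longer than BimEL.

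The intron that is exactly the 180-base stretch shown above was on 0% of the spanning FPKM in the library labelled USP49 knockdown and 32.6% in the control library. The longer intron of NM_138627, which removes that stretch as well, was on 0% in the library labelled USP49 knockdown and a further 18.0% in the control library. The intron before the extra exon was on 38.6% in the library labelled USP49 knockdown and 0% in the control library. Of the gene's 6 alternative introns, 5 differed by 20 points or more, a size that 47.3% of 18982 alternative introns over all genes also reached. The 6 introns lie on the same few models and are not independent. The forms listed at 0 may each hold up to about 10.0% of the locus, and the part that this listing minimum and the low fragment numbers play in these differences was not tested.

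**Figure D5:**
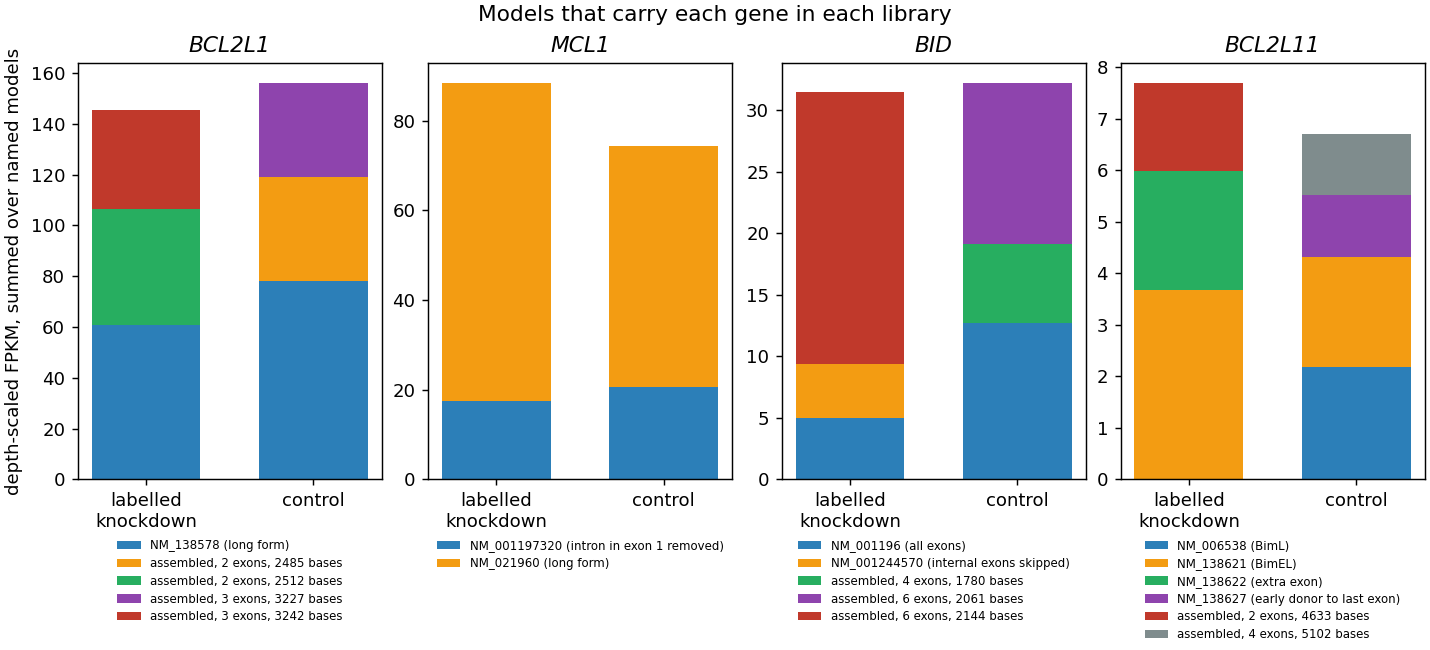
Depth-scaled FPKM of each named model of BCL2L1, MCL1, BID and BCL2L11, stacked, with the library labelled USP49 knockdown on the left and the control library on the right of each panel; each panel has its own axis from 0. Neither short form of BCL2L1 or MCL1 appears in either library, while BCL2L11 was carried by BimEL, NM_138622 and an assembled model in the library labelled USP49 knockdown and by BimEL, BimL, NM_138627 and an assembled model in the control library.

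BMF, a BH3-only protein tied to the actin cytoskeleton, was the lowest of the 10 genes and lay below the minimum of 1 FPKM. It lies on chromosome 15, minus strand, from 38167383 to 38188377. It had 0.388 FPKM (0.273 to 0.535) in the library labelled USP49 knockdown and 0.320 FPKM (0.207 to 0.472) in the control library, on 37 and 25 fragments, with a ratio of 1.21 (0.712 to 2.10). The single model above 0 was NM_033503 in the library labelled USP49 knockdown and an assembled model without its exon before the last in the control library. At this depth a difference in BMF level was not detectable.

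Introns were counted where models spanning them summed to at least 1 FPKM in each library, which leaves out BMF. The single BMF model above 0 included the exon before the last in the library labelled USP49 knockdown and lacked it in the control library. These models rest on 37 and 25 fragments over their whole length, labelled knockdown first. How many of those fragments touched that exon is not known. Among the other 9 genes, 5 (BAK1, BCL2L1, BCL2L11, BID and MCL1) had RefSeq introns that only some of the spanning models used, 14 introns in all. Of these 14, 6 differed by 20 points or more, all in BCL2L11 (5) and BAK1 (1), against 47.3% of 18982 such introns over all genes (8981). The median absolute difference was 18.4 points over the 14 introns and 19 points over all. Counted by gene, 2 of the 5 (40%) had such an intron, and 61.7% of 5918 genes over the whole series did. A share difference of this size was thus common in these assemblies, and the members' count lay near it.

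By summed FPKM no member was past 2-fold, against 3.08% of 11561 genes under that measure. The sum leaves out unnamed models over a gene, and its ratio lay farther than the counting spread from the density ratio for BAK1, BOK, MCL1, BCL2L11 and BCL2L2.

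Among 13 other family genes, 8 were measured, with 4 above 0 and 4 below and a median log2 ratio of -0.01. None of the 8 was past 2-fold, beside 0.78% of all genes measured. BAX, the other main pore-forming effector, had 49.1 FPKM in the library labelled USP49 knockdown and 62.4 FPKM in the control library, a log2 ratio of -0.34 and a ratio of 0.786 (counting interval 0.726 to 0.851). The summed FPKM gave BAX the same log2 ratio of -0.34, and RefSeq models alone gave 0.43. PMAIP1, which encodes NOXA, a BH3-only partner of MCL1, had 79.4 FPKM in the library labelled USP49 knockdown and 68.3 FPKM in the control library, a log2 ratio of 0.21. BBC3, which encodes PUMA, had 11.9 FPKM in the library labelled USP49 knockdown and 13.6 FPKM in the control library, a log2 ratio of -0.17. The direction of BBC3 turned with the measure: summed over named models it had 15.4 FPKM in the library labelled USP49 knockdown and 10.9 FPKM in the control library, a log2 ratio of 0.46. For the densities of these 3 genes, of the 8 measured, the counting interval left out 1, as it did for 27.2% of all genes measured.

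The densities of the remaining measured family genes lay close together in the libraries. BCL2, the founding anti-apoptotic gene, was low, with 1.18 FPKM in the library labelled USP49 knockdown and 1.13 FPKM in the control library, and its sum over named models was 2.09 FPKM and 0.874 FPKM, labelled knockdown first. BCL2L12 had 28.3 and 29.5 FPKM, BCL2L13 12.4 and 12.1 FPKM, BNIP3 10.3 and 10.9 FPKM, and BNIP3L 14.7 and 14.4 FPKM, labelled knockdown first in each. BCL2A1 and BCL2L10 were listed at 0 in both libraries, and HRK, BCL2L14 and BCL2L15 were below the minimum.

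Of 20 genes of the mitochondrial pathway downstream and of MCL1 turnover, 18 were measured, 9 above 0 and 9 below, with a median log2 ratio of 0.01. None of the 18 was past 2-fold, beside 0.78% of all genes measured. The counting interval left out 1 for 2 that were higher and 3 that were lower, 5 of 18 beside the 27.2% of all genes. HTRA2, a mitochondrial protease that antagonises inhibitors of apoptosis, had the lowest ratio, with 29.4 FPKM in the library labelled USP49 knockdown and 35.8 FPKM in the control library (log2 ratio -0.27). Much of that HTRA2 density came from models not on the gene's strand. With models of its own strand alone, HTRA2 had 13.53 FPKM in the library labelled USP49 knockdown and 20.55 FPKM in the control library (log2 ratio -0.57). CASP9, the initiator caspase of this pathway, had 5.51 and 6.54 FPKM (-0.21), VDAC3, an outer membrane channel, 104 and 90.8 FPKM (0.19), and YWHAZ, a 14-3-3 protein that binds phosphorylated BAD, 30.61 and 35.02 FPKM (-0.19), labelled knockdown first in each.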

How the data were processed

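The deposited values were read from 1 Cufflinks transcript assembly per library, made with TopHat, Bowtie, SAMtools, Picard, Cufflinks and bedtools on hg18 per the submitters' processing notes, with versions not given in the sources used here. Each model carries a value named FPKM with an interval, as deposited by the authors. These values were not divided by depth: where a locus had 1 model, its interval returned a number of fragments that was whole within 0.02 for 94.5% of loci in the library labelled USP49 knockdown and 94.9% in the control library. The value was proportional to that number over the model's length minus 47 bases (252 and 246 bases for unspliced assembled models). Fragments were recovered by this relation and scaled to library totals, whose ratio was 1.22.

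Gene symbols, and nothing else, came from RefSeq's GRCh38.p14 gene table (39319 of 41157 by accession, 671 by the symbol in the files). All coordinates are 1-based hg18 positions as deposited. Sequences came from GENCODE 29. Genes needed 300 exonic bases for a density, a mean of 1 FPKM to be counted and 2-fold to be called; the pseudocount was 1 FPKM. A form's share is the FPKM of models with its intron over that of all named models spanning it. All 10 genes are described with their models above 0, other family genes where measured, and the 4 largest ratios of the pathway list. Members, lists and tests were chosen with earlier results of these data known. The gene density was tested on simulated fragment numbers, with the models of the control library used for both simulated libraries. That test could not cover differences between the assemblies, and the form shares were not part of it. Python 3.11.15, numpy 2.4.6, pandas 2.3.3, scipy 1.17.1 and matplotlib 3.10.9 were used. Alternatives were the gene measure, scaling, pseudocount and minimum level. With 1 library per group no replicate could be left out.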

Additional observations from a re-analysis of the deposited data

Results flagged for a closer look

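Unspliced models that carry no gene name within 5000 bases after the 3′ end of MCL1 held 11 fragments in the library labelled USP49 knockdown, from 148811665 to 148812717 of hg18 on chromosome 1, and 0 fragments in the control library. It stood out as a signal in models that the comparisons above do not use, present in the library labelled USP49 knockdown and listed at 0 in the control library. The counting interval of the depth-scaled ratio starts at 2.06. It takes the control value as a count, whereas 0 here means that no model was listed. Fragments too few to form a model would not appear, so the interval cannot show an excess of RNA. Only an excess in the library labelled USP49 knockdown was looked for, and the share of all genes with such an excess was not counted. Windows of the same length after the other 9 genes showed no such excess. After BIK the difference went the other way, with 0 and 98.7 fragments, labelled knockdown first.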

How the results depend on the processing

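The count of members past 2-fold was 0 under every alternative run: density from the gene's own strand, summed FPKM, fragments on named models as a share of the library, RefSeq models alone, no depth scaling, TPM, a pseudocount of 0.1 FPKM, no minimum level and a minimum of 5 FPKM. The median log2 ratio of the members ranged from -0.06 to 0.05 under these, except with no depth scaling, where it was 0.22 beside a median of 0.26 over all genes. Relative to the spread given by counting error, 6 of the 10 genes moved with RefSeq models alone, 5 with summed FPKM, 4 with the share of library fragments, 8 with no depth scaling and 1, MCL1, with the gene's own strand; none moved with TPM or the smaller pseudocount. The short-form shares of BCL2L1 and MCL1 stayed at 0% with fragments in place of FPKM and with RefSeq models alone. No paired analysis was possible because each group has 1 library. BMF rests on 37 fragments in the library labelled USP49 knockdown and 25 in the control library; forms under about 10.0% of a locus are not listed above 0. What depth does to the forms of BCL2L11 and BAK1 was not tested. Directions turned between measures for BAK1, BOK, BCL2L11, BCL2L2, BID and BIK, and with no depth scaling also for BCL2L1 and BAD.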

Other observations

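Unnamed unspliced models within 5000 bases after the 3′ end of the other genes gave these fragment numbers. After BCL2L2 there were 65 in the library labelled USP49 knockdown and 35 in the control library, a depth-scaled ratio of 1.52 with a counting interval of 0.995 to 2.37. After BOK there were 97 in the library labelled USP49 knockdown and 85 in the control library. After BIK there were 0 in the library labelled USP49 knockdown and 98.7 in the control library, on 1 model with no strand. None were listed after BCL2L1, BAK1, BID, BAD, BCL2L11 or BMF in either library.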
